A study of Mus musculus with 13 samples.

Results

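The unfolded protein response and the integrated stress response were followed here through 36 genes, chosen by name from textbook knowledge of both pathways. The choice was made with earlier results of these data known. They are 36 of the 57010 genes listed for each library, and all 36 are among the 15034 genes with enough counts to be tested. By role they comprise 4 sensors and transducers, 11 chaperones and co-chaperones of the endoplasmic reticulum (ER), 4 protein disulfide isomerases, 4 genes of ER-associated degradation, 5 regulators of the integrated stress response and 8 genes of amino acid supply and one-carbon metabolism. RNA was sequenced from primary wild-type mouse embryonic fibroblasts (MEFs), which the study isolated from mid-gestation embryos after removal of the viscera and grew at low oxygen in medium with added non-essential amino acids. Control MEFs were untreated by the labels, while the study's text has them receive vehicle. Senescent MEFs had been exposed to 2 μM etoposide, a topoisomerase poison that breaks DNA, for 24 h and were then kept for 5 days in normal medium. FV100 and FV300 are senescent MEFs, induced in the same way, that were given Fucoidan-FV, a sulfated polysaccharide of the brown seaweed Fucus vesiculosus, at 100 or 300 μg/mL for 12 h. Each of the 4 groups holds cells of mice 4, 5 and 6. Control mouse 5 was sequenced as libraries 5(1) and 5(2), which were summed, so that 13 libraries gave 12 samples and 3 samples per group. The study names the 3 samples of a group independent biological replicates.

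When unfolded proteins build up in the ER, the membrane sensors IRE1 (Ern1), ATF6 and PERK (Eif2ak3) raise the output of chaperones, folding enzymes and degradation factors, IRE1 through splicing of Xbp1 mRNA and ATF6 by release of a transcription factor. PERK also phosphorylates the translation factor eIF2, a step shared with kinases that sense amino acid shortage, heme shortage and viral RNA. Phosphorylated eIF2 lowers general protein synthesis and favours translation of ATF4, which drives genes for amino acid import, serine and asparagine synthesis, mitochondrial one-carbon metabolism and, under long stress, the factor CHOP (Ddit3). These steps act largely on protein and on RNA splicing, which gene counts do not show.

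The 13 libraries held 22782505 to 31278741 expected counts. Fibroblast markers summed to 31846 to 53789 CPM (counts scaled to library size with TMM factors) over all samples, and the sums of macrophage, endothelial and epithelial markers reached at most 16.3 CPM in any sample. Most of the fibroblast sum was Fn1, at a mean of 25337.5 CPM in control MEFs. The lowest of that list, Lum and Dcn, averaged 0.06 and 1.06 CPM in control and 6.60 and 81.6 CPM in FV100. The myogenic factors Myod1, Myog and Myf5 had at most 1 count in any library, while Acta1 and Des brought the muscle list to 67.8 to 360 CPM. The neural list summed to 38.2 to 93.9 CPM, most of it Tubb3, and its part in the results was not tested. In bulk RNA, fewer cells of a type and less RNA per cell cannot be told apart.

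Some libraries stood apart in genes whose exonic sequence lies in a single annotated transcript. Between libraries 5(2) and 5(1) of the same mouse, the median log2 difference was 1.84 over 2270 genes with more than 95% of their exonic bases in 1 transcript, and -0.14 over 7576 genes with less than 50%. Over all libraries, such genes deviated from their own mean by a median of between -1.43 (control mouse 6) and 1.13 (FV100 mouse 5). Of the 36 genes, 8 have more than 80% of their exonic bases in 1 transcript, namely Atf6, Dnajb9, Dnajc3, Sdf2l1, Creld2, Pdia4, Chac1 and Slc7a5. Each of these 8 differed by 1.80 or more between libraries 5(2) and 5(1), with a median of 2.31, and Chac1 reached 4.12. The other 28 genes had a median of -0.16, but Ddit3 (1.81), Trib3 (1.74) and P4hb (1.09) also passed 1. Spread in these 11 genes is therefore in part between libraries of 1 mouse. An offset that removes this trend from each sample, with libraries 5(1) and 5(2) already summed, was tried in all comparisons. With it, of the 11 genes, Slc7a5 kept its calls, Ddit3 kept its call in senescent MEFs and Trib3 its call in FV100 against control. It added calls for Trib3 in senescent and FV300 MEFs, Chac1 in FV100 and FV300 and Dnajb9 in FV100, all against control, and none against senescent MEFs.

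**Figure D1:**
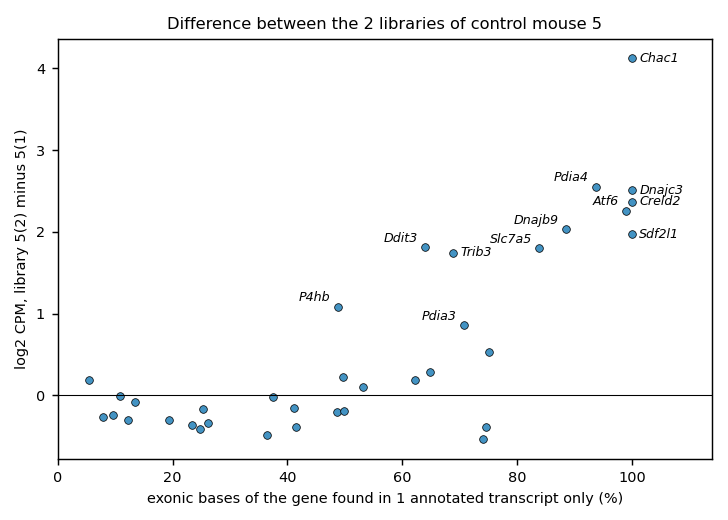
Log2 difference in CPM between the 2 libraries of control mouse 5 (y axis) against the percent of exonic bases of a gene that lie in 1 annotated transcript only (x axis), 1 point per gene for the 36 genes. All 8 genes above 80% sit at 1.80 or higher, and most of the others lie close to 0.

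In senescent MEFs, 7 of the 8 amino acid and one-carbon genes were lower than in control MEFs, the folding genes Pdia6 and Hyou1 were lower and the CHOP gene Ddit3 was higher. At an adjusted p under 0.05, 9 of the 36 genes fell, against 5.63% of all genes tested, and 1 rose, against 6.11% of all genes. The 9 that fell were Psat1, Aldh1l2, Slc7a5, Shmt2, Mthfd2, Asns, Slc3a2, Pdia6 and Hyou1, and the 1 that rose was Ddit3. The log2 fold change was negative in 31 of the 36 genes, with a median of -0.55 beside 0.07 over all genes tested. By role, the median was -1.37 in the amino acid and one-carbon genes, -0.59 in the disulfide isomerases, -0.55 in the chaperones, -0.43 in the sensors, -0.37 in the regulators and -0.20 in the degradation genes. With the offset for single-transcript genes, 16 of the 36 genes were called, 1 higher and 15 lower, while the calls over all genes went from 11.7% to 16.2%. The calls it added, all lower, were Hspa5 (adjusted p = 0.00365), Hsp90b1 (0.0169), Calr (0.0279), Trib3 (0.0452), Phgdh (0.0467) and Atf4 (0.0467).

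**Figure D2:**
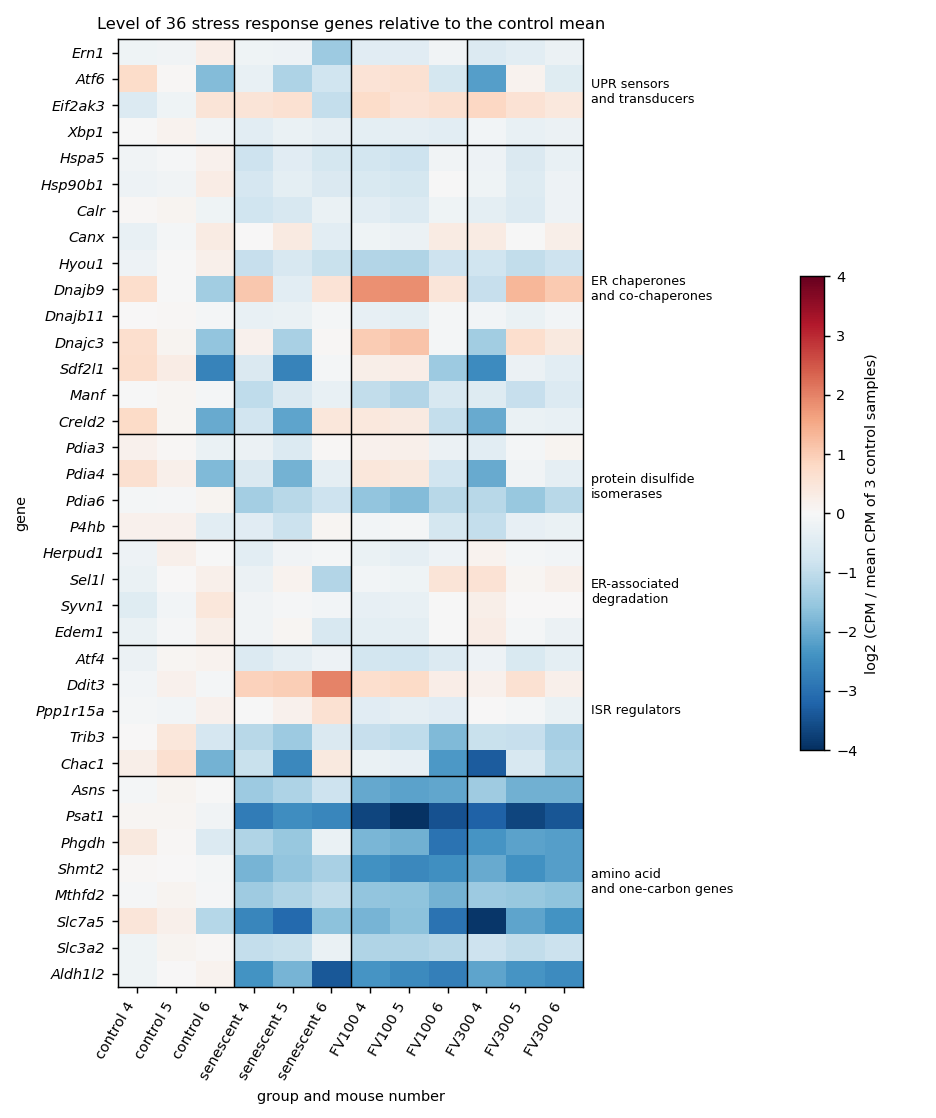
Level of each of the 36 genes (rows, by role) in each of the 12 samples (columns, group and mouse), as log2 of CPM over the mean CPM of the 3 control samples. Psat1, Shmt2 and Aldh1l2 are low in all 9 senescent and treated samples, and the genes Atf6, Dnajc3, Sdf2l1, Creld2, Pdia4 and Chac1 vary widely between samples of 1 group.

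Psat1 (chr19:15882039-15924701, minus strand, build GRCm39) encodes phosphoserine aminotransferase, the second enzyme of serine synthesis. It was counted at 758, 758 and 652 CPM in control mice 4, 5 and 6 and at 105, 129 and 119 CPM in senescent mice 4, 5 and 6. Every control sample lay far above every senescent sample, and the level was 6.13-fold lower in senescent MEFs, a log2 difference of -2.62 (SE 0.19, adjusted p = 7.66e-06). Phgdh, the first enzyme of the same pathway, was at 298, 235 and 156 CPM in control and 99.9, 79.8 and 192 CPM in senescent MEFs. Here senescent mouse 6 lay above control mouse 6, the groups overlapped, and the difference of -0.89 (SE 0.35, adjusted p = 0.127) was not called. Without senescent mouse 6 it was -1.34 (adjusted p = 0.0305), the only call in the 12 fits that left out 1 sample. The others reached an adjusted p of 0.382, without control mouse 4.

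The mitochondrial one-carbon enzymes take the carbon of serine to folate. Shmt2 (chr10:127352266-127358323, minus strand), which splits serine to glycine, was at 413, 407 and 383 CPM in control and 110.1, 134 and 163 CPM in senescent MEFs. The next enzyme, Mthfd2 (chr6:83282673-83302890, minus strand), was at 148, 163 and 147 CPM and 56.9, 66.5 and 78.0 CPM. Aldh1l2 (chr10:83323314-83370005, minus strand), which oxidizes formyl-folate in mitochondria, was at 204, 231 and 251 CPM in control and 43.7, 63.6 and 21.6 CPM in senescent MEFs, with mouse 6 the lowest. None of the 3 genes overlapped between the groups. Their log2 fold changes were -1.56 (SE 0.18, adjusted p = 0.000155) for Shmt2, -1.19 (SE 0.17, adjusted p = 0.000729) for Mthfd2 and -2.41 (SE 0.31, adjusted p = 0.000328) for Aldh1l2, which is 5.32-fold lower. An opposite-strand gene, Nopchap1, covers 14.1% of the exonic bases of Aldh1l2, and whether reads were counted by strand is not given in the sources used here.

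Asns (chr6:7671667-7728461, minus strand), which makes asparagine, was at 433, 499 and 452 CPM in control and 169.8, 196 and 262 CPM in senescent MEFs, a difference of -1.14 (SE 0.20, adjusted p = 0.00238) with no overlap. Slc7a5 (chr8:122607884-122634433, minus strand) and Slc3a2 (chr19:8684245-8701108, minus strand) encode the light and heavy chains of the LAT1 importer of large neutral amino acids. Slc7a5 was at 184, 154 and 60.3 CPM in control and 21.5, 15.2 and 42.3 CPM in senescent MEFs, with control mouse 6 low among the controls but still above all 3 senescent samples. The difference was -2.33 (SE 0.54, adjusted p = 0.0139), and it was -2.30 (adjusted p = 0.00088) with the offset for single-transcript genes. Without control mouse 4, control mouse 5, senescent mouse 4 or senescent mouse 5 the call was lost, at adjusted p = 0.0723, 0.0572, 0.0771 and 0.0705. Slc3a2 was at 271, 329 and 312 CPM in control and 158, 162 and 251 CPM in senescent MEFs, where mouse 6 came close to the lowest control. Its difference of -0.67 (SE 0.19, adjusted p = 0.0345) was the smallest of the calls and held in 5 of the 12 fits that left out 1 sample. These lost it without control mouse 5 or 6, senescent mouse 4 or 5, FV100 mouse 4 or 5, or FV300 mouse 6, at adjusted p from 0.0545 to 0.0945.

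**Figure D3:**
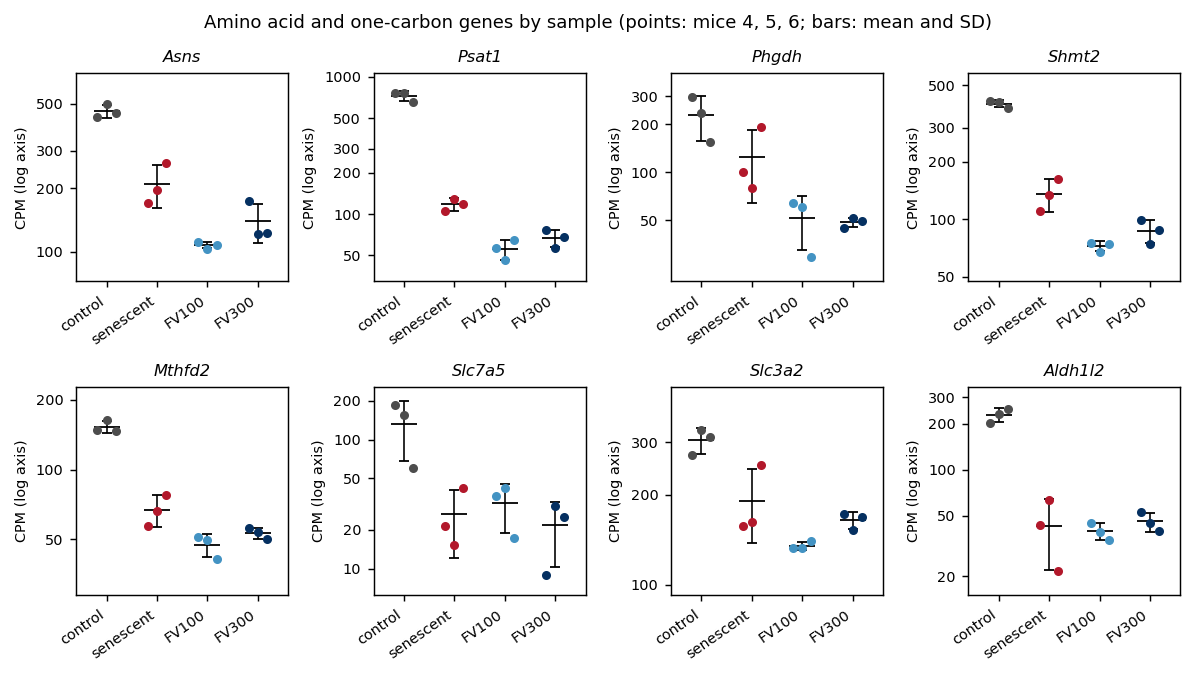
CPM (log axis) of the 8 amino acid and one-carbon genes in each sample, with the group mean and SD; points stand for mice 4, 5 and 6 from left to right. Psat1, Shmt2, Mthfd2, Asns and Aldh1l2 are high in all 3 control samples and low in all others, and Psat1 is lowest in FV100 and FV300.

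Other genes of amino acid transport and synthesis, listed apart from the 36, were mostly lower as well. This list too was written with earlier results of these data known, so its counts are no separate support. Of 17 tested, 15 fell and 0 rose in senescent MEFs, and the median of the log2 fold changes was -1.32. The largest falls were in the transporters Slc7a3, for cationic amino acids, at -3.18 (SE 0.27, adjusted p = 1.82e-05), and Slc1a5, for glutamine and other neutral amino acids, at -2.80 (SE 0.27, adjusted p = 3.98e-05), and in Shmt1, the cytosolic counterpart of Shmt2, at -2.92 (SE 0.55, adjusted p = 0.00391). Of the 18 cytosolic aminoacyl-tRNA synthetases, which load amino acids onto tRNA, 6 fell and 0 rose, and all 18 log2 fold changes were negative, with a median of -0.53.

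In the remaining pathway lists few genes were called. Of 10 further regulators of the unfolded protein response 1 rose, of 20 further folding genes 1 fell, of 18 further degradation genes 2 rose, of 14 translocon and signal peptidase genes 3 fell, of 12 eIF2 kinases, phosphatase and eIF2 subunits 1 fell, and of 12 other ATF4-linked factors 1 rose. The risers with the largest change were Nupr1, a small stress-induced chromatin protein, at 1.36 (SE 0.28, adjusted p = 0.00676), Crebrf, a regulator of the factor CREB3, at 1.3 (SE 0.36, adjusted p = 0.0308), and Erlec1, a lectin of ER-associated degradation, at 0.85 (SE 0.17, adjusted p = 0.00627). Over all 121 tested pathway genes, the amino acid genes and synthetases above included, 4 rose and 26 fell, beside 6.11% and 5.63% of all genes. Most of these falls were in those 2 lists.

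Among the ER chaperones, Hyou1 (chr9:44290418-44303666, plus strand), a large Hsp70-type chaperone, was the 1 of 11 that fell. It was counted at 444, 506 and 591 CPM in control and 268, 326 and 275 CPM in senescent MEFs without overlap, a difference of -0.82 (SE 0.17, adjusted p = 0.00747). Hspa5 (chr2:34661982-34668880, plus strand), the chaperone BiP that holds the sensors inactive, was at 1678, 1812 and 2112 CPM and 1054, 1369.8 and 1155 CPM. All 3 control samples of Hspa5 lay above all 3 senescent samples, yet the difference of -0.65 (SE 0.21, adjusted p = 0.0648) did not pass the threshold, and it was -0.75 (adjusted p = 0.00365) with the offset and -0.66 (adjusted p = 0.0264) with DESeq2. Exons of the opposite-strand gene Rabepk cover 23.7% of its exonic bases.

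The groups also did not overlap for Hsp90b1, the chaperone GRP94, at -0.55 (adjusted p = 0.123), for the lectin chaperone Calr at -0.55 (adjusted p = 0.0762), and for Manf, a secreted ER stress protein, at -0.60 (adjusted p = 0.0775), none of them called. In senescent MEFs 14 of the 36 genes (38.9%) lay wholly below control without overlap, beside 12.9% of all genes tested. The other lectin chaperone, Canx, was at 802, 931 and 1225 CPM in control and 989, 1252 and 733 CPM in senescent MEFs, and its log2 fold change was 0.01 ± 0.24. The cochaperones Dnajb9, Dnajb11 and Dnajc3 and the folding factors Sdf2l1 and Creld2 ranged from -0.76 to 0.53, with no call. For Dnajb9, Dnajc3, Sdf2l1 and Creld2 the SE was 0.59 to 0.84.

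Of the disulfide isomerases, which form and shuffle protein disulfide bonds, Pdia6 (chr12:17316533-17335913, plus strand) was at 847, 863 and 968 CPM in control and 349, 415 and 506 CPM in senescent MEFs. Each senescent sample lay below each control sample, and the difference was -1.08 (SE 0.21, adjusted p = 0.00467), 2.11-fold lower. It kept its call in all 25 alternative fits. P4hb was at 769.8, 767 and 508 CPM and 501, 379.6 and 713 CPM, and Pdia3 at 475, 441 and 352 CPM and 359, 286 and 435 CPM, with overlap in both genes. Their differences and that of Pdia4 were -0.36 ± 0.27, -0.23 ± 0.21 and -0.81 ± 0.59, with no call.

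Of the 11 chaperones 6 hold a promoter element of the unfolded protein response. The chaperones were chosen as genes of that response, so a high share of the element among them is no separate support. The ER stress response element (ERSE), which ATF6 and XBP1 bind together with NF-Y, was searched as CCAAT and CCACG with 9 bases between them, on both strands, in the 250 bases before the start of the canonical transcript of each protein-coding gene. It was present before 8 of the 36 genes (22.2%) and before 25 of 21647 promoters of the whole genome (0.115%). Of the 8, 6 are chaperones, 1 is the disulfide isomerase Pdia6 and 1 is Syvn1, the ubiquitin ligase HRD1 of ER-associated degradation. The windows below are from the GRCm39 genome, written 5′ to 3′ on the strand of the gene with 5 bases on each side. They are shown because they carry the element, which stands in capitals, and where it lies on the other strand it reads CGTGG, 9 bases, ATTGG.
Hspa5 (chr2:34662032-34662060, plus strand): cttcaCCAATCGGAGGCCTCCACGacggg
Calr (chr8:85573699-85573727, minus strand): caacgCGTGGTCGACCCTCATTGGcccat
Hsp90b1, site 1 (chr10:86541497-86541525, minus strand): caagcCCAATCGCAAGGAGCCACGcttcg
Hsp90b1, site 2 (chr10:86541392-86541420, minus strand): gagtgCGTGGTGAGGCACGATTGGtgagt
Canx (chr11:50216622-50216650, minus strand): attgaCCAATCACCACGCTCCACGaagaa
Dnajc3 (chr14:119175234-119175262, plus strand): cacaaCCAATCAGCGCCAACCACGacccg
Creld2 (chr15:88703718-88703746, plus strand): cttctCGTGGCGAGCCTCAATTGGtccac
Pdia6 (chr12:17316487-17316515, plus strand): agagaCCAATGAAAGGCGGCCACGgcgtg
Syvn1 (chr19:6096557-6096585, plus strand): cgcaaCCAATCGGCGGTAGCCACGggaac
Hsp90b1 holds 2 copies, in opposite orientation. The element lies between 19 and 142 bases before the start in these 8 genes. The Hspa5 window and the second Hsp90b1 window also overlap exons of other transcripts of the same genes, and those of the first Hsp90b1 site, Canx and Syvn1 overlap exons of Ttc41, Gm73210 and D530017H19Rik. The other windows are in no annotated exon.

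In senescent against control MEFs the 8 log2 fold changes ran from -1.08 in Pdia6 to 0.01 in Canx, with a median of -0.50 and 1 call, that of Pdia6. The related core TGACGTGG, an XBP1 and ATF6 motif known as UPRE, was found before Hyou1 alone (2.78% of the 36 genes and 0.554% of all promoters). It ends in CGTGG, the reverse complement of CCACG in ERSE, so that the motifs can share bases.
Hyou1 (chr9:44290653-44290670, plus strand): aaccgTGACGTGGcccaa
A C/EBP-ATF element, TGATGNAA, of the kind that ATF4 binds with C/EBP factors, was found before Ddit3, Chac1 and Herpud1 (8.33% of the 36 genes and 3.4% of all promoters) and, in this window of 250 bases, before none of the 8 amino acid and one-carbon genes. Its 3 sites lie on the other strand, so that it reads TTGCATCA here. The Hyou1 and Chac1 windows overlap exons of other transcripts of these genes, that of Hyou1 also exons of 9430081H08Rik and ENSMUSG00000140606, and the Ddit3 window lies within the span of longer Ddit3 transcripts and overlaps exons of Gm4189 and Gm66222.
Ddit3 (chr10:127126356-127126373, plus strand): aaacaTTGCATCAtcccc
Chac1 (chr2:119181525-119181542, plus strand): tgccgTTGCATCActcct
Herpud1 (chr8:95112940-95112957, plus strand): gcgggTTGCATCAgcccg
A match is a string of letters only, and the binding of a factor was not measured.

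None of the 4 sensor genes was called in senescent MEFs. Ern1 was at 30.5, 31.3 and 42.0 CPM in control and 30.7, 29.9 and 12.5 CPM in senescent MEFs, where mouse 6 was the lowest, and the difference was -0.51 (SE 0.30, adjusted p = 0.334). Eif2ak3 was at 21.7, 27.9 and 45.3 CPM and 44.7, 47.8 and 16.5 CPM, again with senescent mouse 6 the lowest, and differed by 0.20 (SE 0.36, adjusted p = 0.795). Atf6 ranged more within groups than between them, at 38.8, 24.3 and 6.95 CPM and 19.1, 9.87 and 13.6 CPM. Its difference of -0.72 (SE 0.61, adjusted p = 0.527), or -0.67 (adjusted p = 0.149) with the offset, rests on a gene with 99.0% of its exonic bases in 1 transcript. Xbp1 was at 120.4, 134 and 111 CPM in control and 90.5, 101 and 95.5 CPM in senescent MEFs, without overlap, at -0.35 (SE 0.15, adjusted p = 0.163), not called. These counts do not tell spliced from unspliced Xbp1 mRNA. The degradation genes Herpud1, Sel1l, Syvn1 and Edem1 lay between -0.33 and -0.09, with no call.

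Among the regulators of the integrated stress response, Ddit3 (chr10:127124268-127132163, plus strand), which encodes CHOP, was the 1 gene that rose. It was at 18.5, 22.4 and 18.9 CPM in control and 38.2, 39.1 and 78.4 CPM in senescent MEFs, with mouse 6 near the sum of the others. All senescent samples lay above all controls, and the level was 2.60-fold higher, a log2 difference of 1.38 (SE 0.29, adjusted p = 0.00808). Libraries 5(1) and 5(2) of control mouse 5 gave 10.6 and 37.2 CPM, so that with library 5(2) alone the difference was 1.09 (adjusted p = 0.0621), and without control mouse 4 it was 1.32 (adjusted p = 0.0517). With the single-transcript offset it was 1.36 (adjusted p = 0.00541), and without senescent mouse 6 it was 0.96 (adjusted p = 0.0232). Exons of Mars1 and Gm4189 on the other strand cover 14.6% of its exonic bases. A second Ddit3 identifier on the same strand shares 5.83% of them, and its level is not given here.

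Atf4 (chr15:80139372-80141745, plus strand), whose protein is controlled mainly by translation, was at 274, 342 and 356 CPM in control and 219.9, 252 and 281 CPM in senescent MEFs, and the difference of -0.37 (SE 0.17, adjusted p = 0.199) was not called. With the single-transcript offset Atf4 was called, at -0.44 (adjusted p = 0.0467). Ppp1r15a, which encodes GADD34, the subunit that directs a phosphatase to eIF2, was at 69.3, 68.9 and 82.7 CPM and 73.4, 83.0 and 113 CPM, at 0.29 (adjusted p = 0.39). Trib3, a pseudokinase downstream of CHOP, was at 20.5, 27.5 and 12.7 CPM and 9.43, 7.41 and 13.5 CPM, at -1.0 (adjusted p = 0.0914), and with the offset it was called, at adjusted p = 0.0452. Chac1, which degrades glutathione, ranged from 1.12 to 10.3 CPM in both groups together, with libraries 5(1) and 5(2) at 1.24 and 21.6 CPM, and no reading of its level is made.

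**Figure D4:**
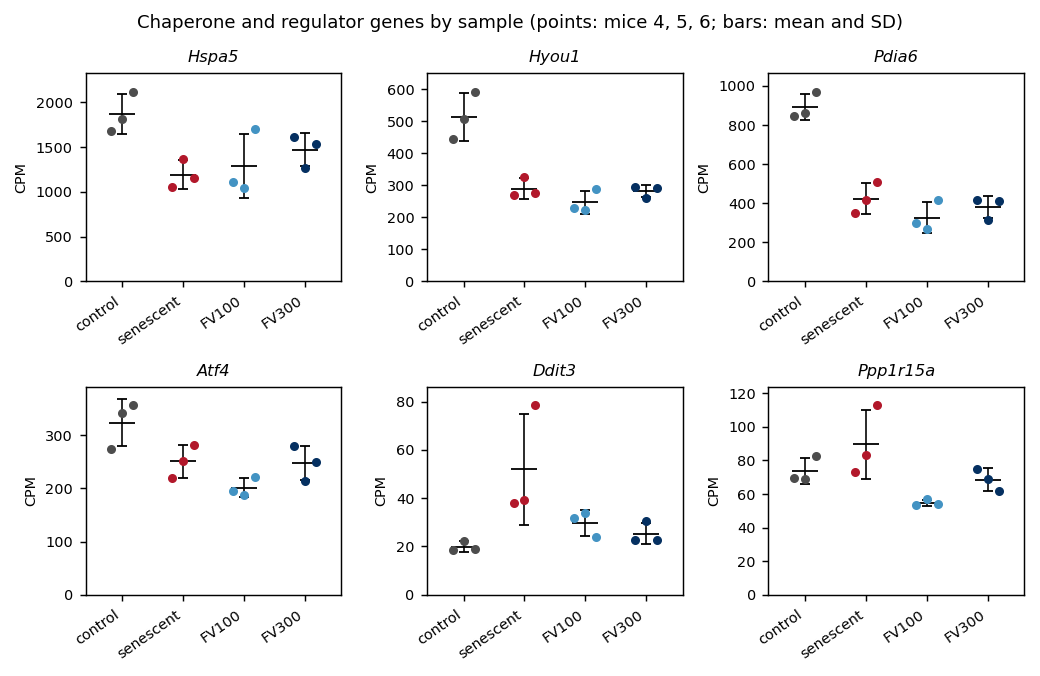
CPM of Hspa5, Hyou1, Pdia6, Atf4, Ddit3 and Ppp1r15a in each sample, with the group mean and SD; points stand for mice 4, 5 and 6 from left to right and the y axes start at 0. Ddit3 is highest in senescent MEFs, where mouse 6 reaches 78.4 CPM, and Hyou1 and Pdia6 are lower than control in all 9 other samples.

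Fucoidan-FV was given to senescent MEFs to ask what it changes in them. At 100 μg/mL, 3 of the 36 genes fell, against 2.89% of all genes tested, and 0 rose, against 1.14% of all genes. The 3 were Psat1, Asns and Shmt2, genes that were already lower in senescent than in control MEFs. At 300 μg/mL, 1 gene fell, Psat1, against 1.12% of all genes, and 0 rose, against 0.778%. With 1 sample left out, the calls over all genes ranged from 139 to 566 in FV100, lowest without FV100 mouse 4, and from 46 to 411 in FV300, lowest without FV300 mouse 6, beside 605 and 286 in the fit of all samples. At an unadjusted p under 0.05, 8 of the 36 genes (22.2%) passed in FV100, beside 19.8% of all genes, and 5 (13.9%) in FV300, beside 15.3% of all genes. The median log2 fold change over the 36 genes was -0.05 in FV100 and 0.03 in FV300, beside -0.02 and 0.00 over all genes tested. Both comparisons share the 3 senescent samples. A fit of only the 2 groups compared called 0 of the 36 at either dose.

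Psat1 was at 56.4, 46.3 and 64.4 CPM in FV100 mice 4, 5 and 6 and at 76.6, 57.0 and 68.1 CPM in FV300 mice 4, 5 and 6. Both doses lay below all 3 senescent samples, which began at 105 CPM. Against senescent MEFs the difference was -1.08 (SE 0.18, adjusted p = 0.00748) at 100 μg/mL and -0.81 (SE 0.18, adjusted p = 0.0352) at 300 μg/mL. With the mouse as a replicate block the second was -0.82 (adjusted p = 0.0652), which left no gene called at 300 μg/mL. It was also lost without senescent mouse 5, FV100 mouse 4 or FV300 mouse 4, 5 or 6, at adjusted p from 0.0505 to 0.177.

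Asns was at 111, 104 and 108 CPM in FV100 and 174, 122 and 123 CPM in FV300. All FV100 samples lay below the senescent range of 169.8 to 262 CPM, whereas FV300 mouse 4 lay within it. The differences were -0.96 (SE 0.20, adjusted p = 0.0181) at 100 μg/mL and -0.59 (SE 0.20, adjusted p = 0.154) at 300 μg/mL. The call at 100 μg/mL held in 6 of the 12 fits that left out 1 sample, and was lost without control mouse 5, senescent mouse 5 or 6 or any FV100 mouse, at adjusted p from 0.0564 to 0.0889. Shmt2 was at 75.5, 67.6 and 73.9 CPM in FV100 and 98.5, 74.3 and 87.7 CPM in FV300, all below the senescent range of 110.1 to 163 CPM. It differed by -0.91 (SE 0.18, adjusted p = 0.0148) and -0.64 (SE 0.18, adjusted p = 0.0862), and the call at 100 μg/mL was lost without senescent mouse 5, FV100 mouse 4 or FV100 mouse 5, at adjusted p from 0.0511 to 0.0807.

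Phgdh had the most negative log2 fold change of the 36 genes at either dose. It was at 64.6, 60.3 and 29.6 CPM in FV100 and 44.9, 51.6 and 49.5 CPM in FV300, below every senescent sample. The differences, -1.27 (SE 0.35, adjusted p = 0.0621) at the lower dose and -1.35 (SE 0.35, adjusted p = 0.0757) at the higher, did not pass the threshold, and without senescent mouse 6, the highest sample of its group, they were -0.62 (adjusted p = 0.424) and -0.84 (adjusted p = 0.335). With the offset for single-transcript genes both were called, at -1.44 (adjusted p = 0.0147) and -1.31 (adjusted p = 0.0244). Mthfd2 and Slc3a2 did not overlap between FV100 and senescent MEFs, at -0.51 (adjusted p = 0.119) and -0.50 (adjusted p = 0.159), neither called. In FV100, 8 of the 36 genes lay wholly below senescent MEFs and 0 wholly above, beside 2253 and 1688 of the 15034 genes tested. In FV300 the counts were 5 and 1 of the 36, beside 1533 and 1414 of all genes tested. Absence of overlap with senescent MEFs was thus common among all genes and by itself marks no change. Aldh1l2 and Slc7a5, among the genes most reduced in senescent MEFs, lay at -0.12 ± 0.30 and 0.28 ± 0.52 at 100 μg/mL and at 0.09 ± 0.30 and -0.29 ± 0.52 at 300 μg/mL, with overlap in each case. With the offset Slc7a5 lay at -0.11 (adjusted p = 0.894) and -0.35 (adjusted p = 0.638).

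**Figure D5:**
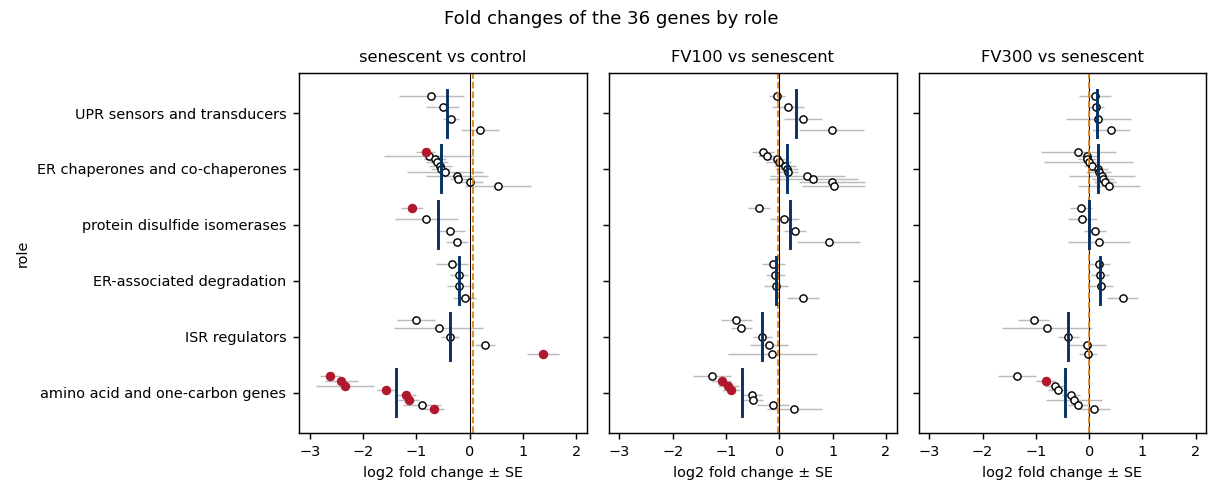
Log2 fold change with its SE for each of the 36 genes (points) by role in 3 comparisons; filled points are called at an adjusted p under 0.05, thick vertical bars are role medians and the dashed line is the median of all genes tested. The amino acid and one-carbon genes have the lowest role median in all 3 panels, at -1.37, -0.71 and -0.46, while no chaperone is called against senescent MEFs.

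Among the regulators, Ddit3 was at 31.6, 33.7 and 23.8 CPM in FV100 and 22.7, 30.4 and 22.8 CPM in FV300, all below the senescent range of 38.2 to 78.4 CPM and above the control range of 18.5 to 22.4 CPM. FV300 mice 4 and 6 passed the highest control, mouse 5, only narrowly. Library 5(2) of that mouse alone, at 37.2 CPM, lay above every FV100 and FV300 sample, so no order between control and treated MEFs is read. The differences from senescent MEFs were -0.81 (SE 0.29, adjusted p = 0.138) and -1.04 (SE 0.29, adjusted p = 0.0919), neither called, and without senescent mouse 6 they were -0.21 (adjusted p = 0.685) and -0.56 (adjusted p = 0.387). Ppp1r15a was at 53.4, 56.9 and 54.0 CPM in FV100, below the senescent range of 73.4 to 113 CPM, and at 75.1, 69.1 and 61.6 CPM in FV300, which overlapped it. Its differences were -0.71 (SE 0.19, adjusted p = 0.0533) and -0.39 (SE 0.19, adjusted p = 0.356). Atf4 was at 195, 188 and 221 CPM and 279, 215 and 249 CPM, with differences of -0.32 ± 0.17 and -0.02 ± 0.17. The sign of Atf4 in FV300 turned in 11 of 25 alternative fits. The medians over the 5 regulators, Chac1 included, were -0.32 and -0.39, and none was called.

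No sensor, chaperone, disulfide isomerase or degradation gene was called at either dose. Hspa5 was at 1115, 1045 and 1701 CPM in FV100 and 1613, 1262 and 1536 CPM in FV300, and differed from senescent MEFs by 0.11 (SE 0.21, adjusted p = 0.829) in FV100 and 0.30 (SE 0.21, adjusted p = 0.556) in FV300. Hyou1 and Pdia6 stayed at 229, 223 and 289 CPM and 297, 267 and 416 CPM in FV100 and at 295, 259 and 291 CPM and 415, 315 and 413 CPM in FV300, all below every control sample. Eif2ak3 was at 52.6, 46.3 and 49.2 CPM and 56.4, 46.8 and 42.3 CPM, at 0.44 ± 0.36 and 0.42 ± 0.36, Ern1 at 0.17 ± 0.30 and 0.11 ± 0.30, Xbp1 at -0.05 ± 0.15 and 0.14 ± 0.15, and Atf6 at 0.98 ± 0.61 and 0.17 ± 0.61. With the single-transcript offset Atf6 lay at 0.32 (adjusted p = 0.576) and 0.01 (adjusted p = 0.994). The degradation genes Herpud1, Sel1l, Syvn1 and Edem1 were between -0.11 and 0.44 in FV100 and between 0.19 and 0.63 in FV300.

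Directions in these comparisons depend on the scale. On the TPM values, which the authors deposited beside the counts, the median log2 difference of all genes was 0.30 at 100 μg/mL and 0.23 at 300 μg/mL, in place of -0.02 and 0.00. On that scale Calr was called higher at 100 μg/mL, at 0.53 (adjusted p = 0.0347), and at 300 μg/mL Hspa5, at 0.61 (adjusted p = 0.046), Calr, at 0.50 (adjusted p = 0.0479), and Pdia3, at 0.50 (adjusted p = 0.0435). After each sample was centred on its median these were 0.07 (adjusted p = 0.883) at 100 μg/mL and 0.20 (adjusted p = 0.562), 0.09 (adjusted p = 0.831) and 0.09 (adjusted p = 0.791) at 300 μg/mL. On the uncentred TPM scale, Asns and Shmt2 in FV100 and Psat1 in FV300 lost their calls, at -0.62 (adjusted p = 0.0687), -0.41 (adjusted p = 0.109) and -0.51 (adjusted p = 0.0607). Psat1 and Phgdh were lower in FV100 and FV300 than in senescent MEFs on all 3 scales, the Phgdh difference being called on both TPM scales, at -1.44 (adjusted p = 0.00386) and -1.24 (adjusted p = 0.00901) after centring.

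Of the other pathway genes, 5 of 121 fell at 100 μg/mL, against 2.89% of all genes, and 0 rose, against 1.14%. At 300 μg/mL 2 fell, against 1.12% of all genes, and 0 rose, against 0.778%. Eif2b3, a subunit of the exchange factor that recharges eIF2, fell at both doses, at -1.14 (SE 0.22, adjusted p = 0.0158) and -1.02 (SE 0.22, adjusted p = 0.0344) on the log2 scale. Nars1, the asparaginyl-tRNA synthetase, also fell at both, at -1.0 (SE 0.17, adjusted p = 0.00836) and -0.81 (SE 0.17, adjusted p = 0.0295), and the cysteinyl-tRNA synthetase Cars1 fell at 100 μg/mL, at -1.0 (SE 0.18, adjusted p = 0.0105). The synthetases as a list had medians of -0.57 and -0.40, with 15 and 17 of 18 values negative. The other amino acid transport and synthesis genes, most of them lower in senescent MEFs, had medians of -0.05 and 0.10 and no call at either dose.

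Between the doses, 0 of the 36 genes were called, against 0.00665% of all genes, which is 1 gene, and 0 of the 36 passed an unadjusted p under 0.05. DESeq2 called 0 of the 36 as well. The log2 differences of FV300 from FV100 ran from -0.81 in Atf6 to 0.37 in Asns, with SEs from 0.15 to 0.85. Xbp1, Herpud1, Syvn1, Ppp1r15a, Asns and Slc3a2 did not overlap between the doses, all 6 (16.7% of the 36) higher in FV300, where 5.1% of all genes lay wholly higher and 2.45% wholly lower, with differences such as 0.37 ± 0.20 for Asns and 0.33 ± 0.19 for Ppp1r15a, none of them called. This does not show that the doses act alike.

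Against control MEFs, which differ from FV100 and FV300 in both etoposide and Fucoidan-FV, 13 of the 36 genes were lower in FV100, where 14.4% of all genes were lower, and 11 in FV300, where 12% were lower. All 8 amino acid and one-carbon genes, Hyou1, Manf and Pdia6 were lower in both, and Atf4, at -0.69 (adjusted p = 0.0103), and Trib3, at -1.19 (adjusted p = 0.026), in FV100. With the single-transcript offset Manf in FV300 lost its call, at adjusted p = 0.0771. The offset added calls for Hspa5, at -0.60 (adjusted p = 0.00689) in FV100 and -0.52 (adjusted p = 0.0148) in FV300. It also added Xbp1 in FV100, at -0.39 (adjusted p = 0.0276), and Atf4 in FV300, at -0.49 (adjusted p = 0.0159). These come beside Trib3, Chac1 and Dnajb9, given above. Calls over all genes went from 26.6% to 32.5% in FV100 and from 24.4% to 30.8% in FV300. Psat1 was 13.0-fold lower in FV100, a log2 difference of -3.70 (SE 0.20, adjusted p = 5.28e-07), and 10.7-fold lower in FV300, at -3.43 (SE 0.19, adjusted p = 6.52e-07). For Phgdh the differences were -2.16 (SE 0.36, adjusted p = 0.000829) and -2.24 (SE 0.36, adjusted p = 0.000706). The role median of the amino acid and one-carbon genes was -2.13 in FV100 and -2.22 in FV300, beside -1.37 in senescent MEFs, all against the same 3 control samples. Of the 18 synthetases 15 were lower than control at each dose, and of the 17 other amino acid transport and synthesis genes 13 were. Ddit3 lay at 0.57 (adjusted p = 0.162) and 0.34 (adjusted p = 0.433), not called at either dose. As library 5(2) of control mouse 5 alone, at 37.2 CPM, lay above all treated samples, no order is read.

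Per gene length, the 36 genes covered a wide range of levels in control MEFs. On the TPM scale, Calr was highest at 1456 ± 115 (SD, n = 3), followed by Hspa5 at 887 ± 77.5, Hsp90b1 at 799 ± 103 and P4hb at 755 ± 61.9. The SDs of Hspa5, Hsp90b1 and P4hb cover the steps between neighbours in this order, whereas Calr stood above them. Psat1, at 468 ± 0.955, and Phgdh, at 434 ± 70.6, were the most abundant of the amino acid genes, and Atf4 at 354 ± 38.2 the most abundant of the regulators. The sensors were low, as shown by Ern1 at 11.7 ± 2.75, Eif2ak3 at 13.2 ± 5.33 and Atf6 at 4.30 ± 2.95, while Xbp1 stood at 137 ± 7.37. The genes with the lowest levels, Dnajb9 at 3.88 ± 2.38 and Atf6, are also among those that differed between the 2 libraries of control mouse 5.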

How the data were processed

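Total RNA of 13 MEF libraries was sequenced by the study with the TruSeq Stranded Total RNA kit. The expected counts and the TPM values per gene were both made by the authors, whose processing notes name FastQC 0.12.1, Trimmomatic, STAR 2.7.11b, RSEM 1.3.1 and build GRCm39. Whether counting used strand is not given in the sources used here. The series-wide table of raw counts held the same values and was not used separately.

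Here expected counts were rounded, both libraries of control mouse 5 were summed, and filterByExpr removed low genes (its minimum count was 10 and its minimum total 15). edgeR 4.0.16 (R 4.3.3) fitted 4 groups of 3 mice in 1 quasi-likelihood model with TMM factors, and p-values were Benjamini-Hochberg adjusted over the 15034 genes tested. A gene is called at an adjusted p under 0.05. Log2 fold changes are first minus second group, fold values are 2 to that power, and CPM uses TMM factors. The single-transcript offset subtracts from each sample a lowess trend (span 0.3) of its deviation on the percent of exonic bases in 1 transcript. It was applied after libraries 5(1) and 5(2) were summed, not to each of them. TPM (log2 of TPM + 1) was fitted with limma 3.58.1, an alternative chosen after seeing the data, and DESeq2 1.42.0 was another alternative. The scripts were tested on simulated data.

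Genes with values in the text are the 36, those of the 36 that were called being given per sample together with Hspa5, Xbp1, Ern1, Atf6, Eif2ak3, Atf4 and Ddit3, and at most the 3 largest called rises and falls per comparison among 121 further pathway genes with 1 CPM or more. Phgdh, Ppp1r15a, Trib3, Canx, P4hb, Pdia3 and Manf were added after their values were seen. The 36 genes and all lists were chosen with earlier results of these data known. Coordinates and promoter windows are from the GRCm39 genome and GENCODE vM39, which held 56310 of the 57010 listed genes. Each symbol matched 1 listed gene except Ddit3, which has 2 identifiers, of which ENSMUSG00000025408 was used.

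By the labels, equal mouse numbers mark the same animal in each group. Deviations from group means correlated with a median r of -0.0063 over 18 same-numbered pairs (-0.204 to 0.425), 8 of them over 0.1. The study's methods name no block for the RNA data and none was used, and the replicate block was an alternative.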

Additional observations from a re-analysis of the deposited data

How the results depend on the processing

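The calls among the 36 genes were refitted under other settings. In the 3 comparisons of senescent with control, FV100 and FV300 MEFs, 25 fits gave 2700 log2 fold changes of single genes. Of these 39 lost and 63 gained a call, 202 turned their sign without a call in either fit, and no call turned its sign. Single genes against control in FV100 and FV300 were refitted only with the single-transcript offset, beside the counts below.

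In senescent against control MEFs, 10 of the 36 genes were called, 16 with the single-transcript offset and 8 to 15 with 1 sample left out. In FV100 against senescent MEFs the 3 calls became 5 with DESeq2, 6 with every gene of at least 1 count kept (2 higher, 4 lower), 0 with only the 2 groups compared, 1 when a log2 fold change over 1 was also required, and 1 to 3 with 1 sample left out, 1 being the count without senescent mouse 5, FV100 mouse 4 or FV100 mouse 5. In FV300 against senescent MEFs the 1 call became 4 with DESeq2, 3 with every gene of at least 1 count kept, 0 with only the 2 groups compared, 3 with the single-transcript offset and 2 with the offset and the block together, 0 with a log2 fold change over 1, 4 on the TPM scale (3 higher, 1 lower) and 2 after median centring, both TPM fits having been chosen after seeing the data. With 1 sample left out it ranged from 0 to 2. Against control, 10 to 15 genes in FV100 and 10 to 13 in FV300 were called with 1 sample left out, and between the doses 0 were called in every fit. The cause of these shifts was not tested.

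With the mouse as a replicate block, the pairing left 0 of the 36 genes called in FV300 against senescent MEFs and changed no other call among the 3 comparisons with senescent MEFs. The calls over all genes moved too. FV100 against senescent MEFs gave 605, 1405 with DESeq2, 1144 with every gene of at least 1 count kept and 170 with only the 2 groups compared. FV300 against senescent MEFs gave 286, and 991, 782 and 101 under the same settings, 540 with the single-transcript offset, 472 with the offset and the block, 419 on the TPM scale and 405 after centring.

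In senescent against control MEFs the SEs of the 8 single-transcript genes were 0.54 to 0.84, beside 0.15 to 0.36 for the other 28.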
